A study of Homo sapiens with 24 samples.

Results

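Transcripts of 5 genes of the Notch pathway were followed in MOLT4, a cell line from a human acute leukaemia of T-cell precursors: the receptors NOTCH1 and NOTCH3, and the target genes HES1, DTX1 and GIMAP7. They were chosen by gene symbol from the 9822 genes counted in the series, with earlier results of these data known. All 5 passed the filter on low counts, as did every one of the 9822 genes. The lowest mean count of any gene was 32.04 reads. Cells received SK-3-91, described in the labels as a degrader of many kinases, for 1, 4 or 8 h, or the solvent DMSO for the same times. Each of the 6 groups held 4 libraries, so that 24 libraries of total RNA entered the comparisons. All groups were the same line, with no other agent named in the labels, and the sources used here give no dose of SK-3-91. Whether replicates came from separate cultures is not stated, so a p-value reflects the spread between these libraries, which may be technical.

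Notch receptors are cut at the cell surface once a ligand on a neighbouring cell pulls on them, first by an ADAM protease and then by gamma-secretase. The freed intracellular domain enters the nucleus, joins the DNA-binding protein RBPJ and a Mastermind coactivator, and switches on target genes. T-cell precursors need NOTCH1, and activating NOTCH1 mutations, which MOLT4 is known to carry, are frequent in this leukaemia.

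All 5 transcripts were lower with SK-3-91 by 4 h, but on different schedules. Fold changes are those of SK-3-91 over DMSO at the same time, and a gene was called where edgeR's adjusted p was under 0.05. At 1 h HES1 and GIMAP7 were called lower and none of the other 3 was called in either direction, that is 2 of 5 genes lower, where 29.4% of all genes tested were called lower. At 4 h all 5 were called lower, against 45.9% of all genes, and at 8 h again all 5, against 48.1%. Since the genes were chosen with earlier results known, these counts are a description and not a test. The median log2 fold change of the 5 genes was -0.06, -1.11 and -1.57 at 1, 4 and 8 h, and that over all genes was 0.01, -0.05 and -0.11. SK-3-91 moved most of the transcriptome: 54.3%, 87.9% and 89.4% of genes were called in either direction at the 3 times, so a call alone does not set these genes apart. The split of those calls depended on the scaling: with RLE factors 3249 were higher and 2573 lower at 1 h, and without scaling factors 2871 were higher and 5752 lower at 4 h and 2778 and 6145 at 8 h, beside 2448 and 2889, 4121 and 4511, and 4060 and 4723 with TMM factors. The libraries of SK-3-91 and DMSO did not overlap for 3 of the 5 genes at 1 h, and for all 5 at 4 h and at 8 h. Over all genes the share without overlap was 51%, 83.3% and 83.9%.

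**Figure D1:**
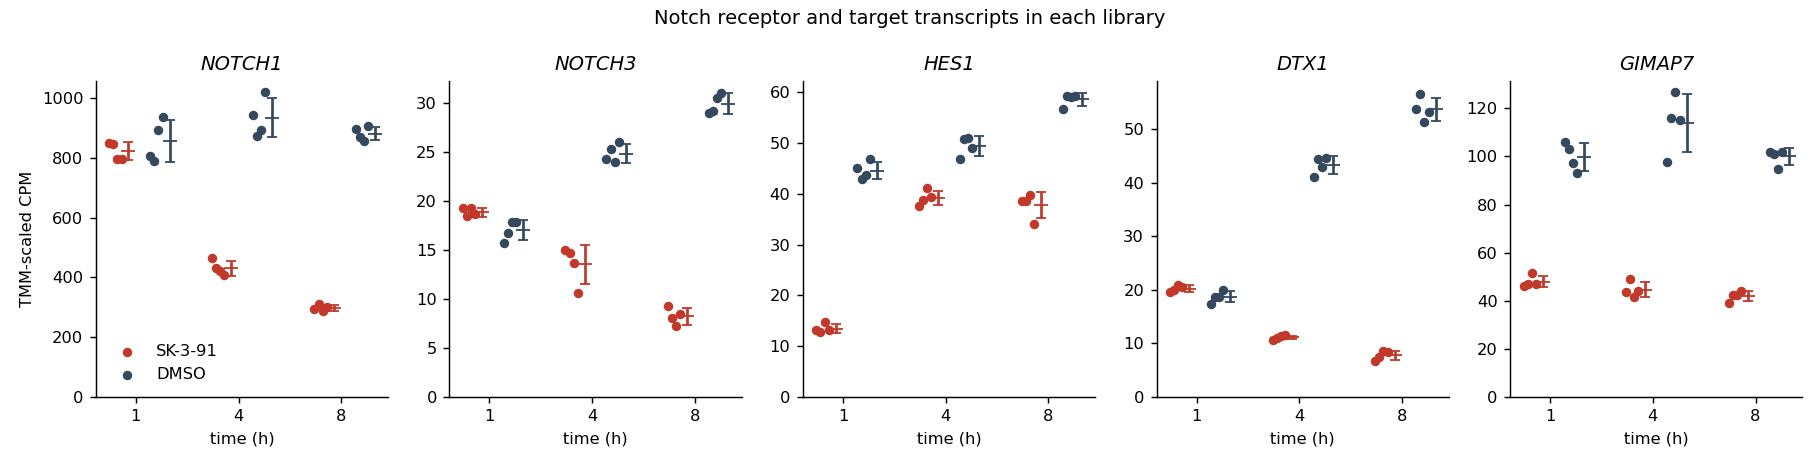
CPM, the reads of a gene per megaread counted, scaled by TMM factors (y axis, linear, from 0) against time in h (x axis) for each gene. Each point is 1 library, and the bar beside each group is the mean ± SD of 4 libraries, with SK-3-91 in red on the left of DMSO in blue. HES1 had its lowest treated level at 1 h (13.4 CPM, against 44.6 CPM in DMSO), whereas NOTCH1, NOTCH3 and DTX1 had theirs at 8 h.

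NOTCH1, the main receptor of T-cell precursors, lies on chromosome 9 between SEC16A and EGFL7. At 1 h its CPM values were 849, 847, 795 and 795 in the SK-3-91 libraries, against 805, 790, 892 and 937 in the DMSO libraries. The groups overlapped, and the log2 fold change was -0.06 ± 0.05 (SE, adjusted p = 0.3 by edgeR's quasi-likelihood test), with a 95% interval from -0.16 to 0.04. At 4 h SK-3-91 libraries had 466, 431, 422 and 407 CPM, against 944, 874, 894 and 1020 CPM in DMSO libraries. All 4 treated libraries were below all 4 controls, with a log2 fold change of -1.11 ± 0.05 (adjusted p = 3.4e-23). At 8 h the values were 293, 310, 286 and 300 CPM with SK-3-91, against 896, 868, 856 and 905 CPM with DMSO, and the log2 fold change was -1.57 ± 0.05 (adjusted p = 6.3e-28). The treated level was then 33.7% of the DMSO level, again with no overlap, and the DMSO groups themselves stayed between 856 and 934 CPM on average.

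NOTCH3, a receptor that is itself a Notch target in T-cell precursors, lies on chromosome 19 between HACL2 and EPHX3. At 1 h SK-3-91 libraries had 19.2, 18.4, 19.2 and 18.6 CPM, and DMSO libraries had 15.7, 16.7, 17.8 and 17.8 CPM. Every treated library was above every control, yet the log2 fold change of 0.15 ± 0.07 did not pass (adjusted p = 0.087, 95% interval from -0.01 to 0.3). With RLE factors in place of TMM factors it was 0.18 and passed (adjusted p = 0.028). At 4 h the direction was the opposite, with 15, 14.7, 13.6 and 10.6 CPM under SK-3-91 and 24.2, 25.3, 23.9 and 26 CPM under DMSO (log2 fold change -0.88 ± 0.08, adjusted p = 2.4e-13). Replicate 4 was the lowest treated library and all 4 lay below the controls. At 8 h SK-3-91 libraries had 9.27, 8.00, 7.19 and 8.41 CPM, against 28.9, 29.1, 30.5 and 31 CPM in DMSO libraries. The groups were far apart (log2 fold change -1.85 ± 0.09, adjusted p = 3.4e-21), and the treated libraries rested on 39 to 66 reads each.

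NOTCH1 was the more abundant receptor in all 6 groups. Per kilobase of the deposited gene width, the NOTCH1 level was 35.7 ± 1.67, 26.5 ± 3.29 and 29.9 ± 2.99 times the NOTCH3 level in SK-3-91 libraries at 1, 4 and 8 h (SD, n = 4 each). In DMSO libraries the same ratio was 41.2 ± 1.85, 30.8 ± 1.78 and 24.2 ± 1.04. The DMSO ratios were lower at each later time while NOTCH3 rose in culture, and the ratios with SK-3-91 at 4 and 8 h overlapped each other.

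Direct Notch targets bind the RBPJ complex through DNA sites that can lie close to the start of the gene. Promoters were therefore read from the RefSeq table of build GRCh38.p14, which held 4 of the 5 genes. The 250 bases before the start site of HES1 (chr3:194135898-194136147, plus strand) and of GIMAP7 (chr7:150514622-150514871, plus strand) are shown because these are the genes called lower at 1 h. Capitals mark the RBPJ core TGGGAA.
HES1: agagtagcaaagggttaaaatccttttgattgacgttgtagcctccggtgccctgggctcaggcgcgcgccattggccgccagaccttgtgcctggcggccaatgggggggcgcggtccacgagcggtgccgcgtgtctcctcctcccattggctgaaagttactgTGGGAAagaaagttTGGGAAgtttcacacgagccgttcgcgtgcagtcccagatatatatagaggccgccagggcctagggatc
GIMAP7: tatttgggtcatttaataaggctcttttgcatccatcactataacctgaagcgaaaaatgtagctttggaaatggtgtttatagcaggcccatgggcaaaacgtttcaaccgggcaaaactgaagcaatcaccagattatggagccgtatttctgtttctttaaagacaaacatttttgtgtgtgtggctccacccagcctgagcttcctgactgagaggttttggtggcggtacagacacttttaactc
HES1 held 2 RBPJ cores, from 84 to 79 and from 70 to 65 bases before the start, and the core farther from the start lies within a match to the longer form GTGGGAA, from 85 to 79. GIMAP7 and the same window of NOTCH1 and NOTCH3 held none on either strand. Of 35114 promoters of the same length, 20.8% held at least 1 core, 2.9% held 2 or more and 5.4% held the longer form. The N-box CACNAG, a site that HES proteins bind, matched at 3 places in HES1, 1 in GIMAP7, 1 in NOTCH3 and none in NOTCH1, and was in 32% of all promoters. The E-box CACGTG matched in none of the 4 and in 6.3% of all promoters. GC content was 59.2% for HES1, 42.8% for GIMAP7, 76.0% for NOTCH1 and 78.0% for NOTCH3, beside a median of 58.0% over all promoters. These matches describe letters in a window, sites outside it were not searched, and no binding was measured.

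**Figure D2:**
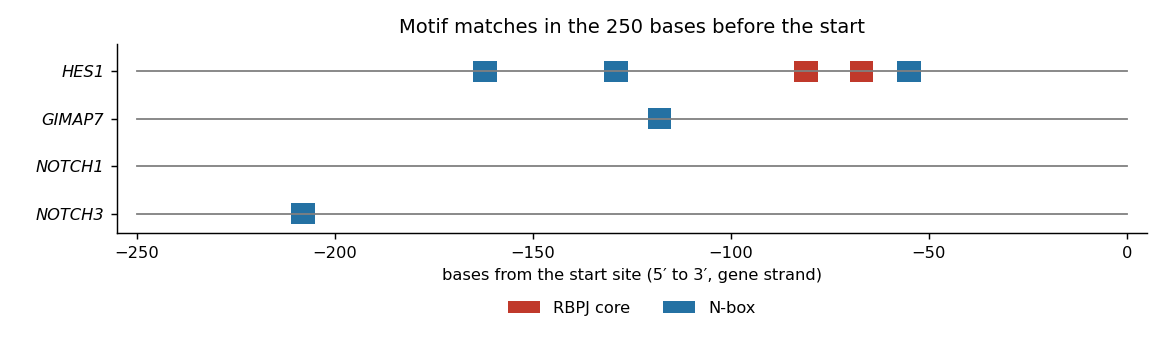
Matches to the RBPJ core and the N-box on either strand in the 250 bases before the RefSeq start of 4 genes (x axis, bases from the start; 1 row per gene). HES1 alone among the 4 carried RBPJ cores, 2 of them, and NOTCH1 had no match to either motif. The NOTCH1 start was not matched to a GENCODE transcript.

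HES1, a repressor of the basic helix-loop-helix class and a classical direct Notch target, lies on chromosome 3 beside CPN2. Its fall was largest at the first time measured. At 1 h SK-3-91 libraries had 13.2, 12.7, 14.7 and 13.1 CPM, and DMSO libraries had 45, 42.9, 43.7 and 46.9 CPM. The highest treated library was far below the lowest control, and the log2 fold change was -1.73 ± 0.06 (adjusted p = 5.4e-25), a level 30.0% of that in DMSO. By 4 h most of the gap had closed: SK-3-91 libraries had 37.7, 38.7, 41.2 and 39.3 CPM, against 46.9, 50.9, 51.1 and 49.0 CPM in DMSO libraries. The groups still did not overlap (log2 fold change -0.34 ± 0.05, adjusted p = 2.8e-07). At 8 h the values were 38.6, 38.5, 39.8 and 34.1 CPM with SK-3-91, against 56.7, 59.3, 59.0 and 59.3 CPM with DMSO (log2 fold change -0.64 ± 0.06, adjusted p = 1.6e-13). Between the treated groups HES1 was 2.92-fold higher at 4 h than at 1 h (adjusted p = 9.9e-24), and from 4 to 8 h its log2 change of -0.06 ± 0.06 did not pass (adjusted p = 0.41, 95% interval from -0.19 to 0.07). That last change was called with upper-quartile factors (-0.17, adjusted p = 0.017) and without scaling factors (-0.21, adjusted p = 0.0023). Tested against a minimum fold of 1.5, the fall of HES1 passed at 1 h and not at 4 h (adjusted p = 1) or 8 h (adjusted p = 0.12).

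DTX1, or deltex, an E3 ubiquitin ligase that binds the Notch intracellular domain, lies on chromosome 12 between OAS2 and RASAL1. At 1 h SK-3-91 libraries had 19.6, 19.9, 20.9 and 20.5 CPM, and DMSO libraries had 17.4, 18.6, 18.6 and 20 CPM. The groups overlapped and the log2 fold change of 0.12 ± 0.06 did not pass (adjusted p = 0.11, 95% interval from -0.02 to 0.25), although it did with RLE factors (0.16, adjusted p = 0.033). At 4 h the values were 10.7, 11, 11.3 and 11.5 CPM with SK-3-91, against 41.1, 44.5, 43.0 and 44.6 CPM with DMSO (log2 fold change -1.96 ± 0.07, adjusted p = 1.8e-26). At 8 h they were 6.60, 7.45, 8.48 and 8.41 CPM with SK-3-91, against 53.7, 56.5, 51.4 and 53.3 CPM with DMSO. This was the deepest fall among the 5 genes, with a log2 fold change of -2.80 ± 0.08 (adjusted p = 7.6e-30) on 46 to 58 reads per treated library.

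Part of that gap came from the controls. DTX1 averaged 18.7, 43.3 and 53.7 CPM in DMSO libraries at 1, 4 and 8 h, a 2.88-fold higher level at 8 h than at 1 h (log2 change 1.53 ± 0.06, adjusted p = 3.3e-24). In SK-3-91 libraries it averaged 20.2, 11.1 and 7.74 CPM. Of the log2 change in response of -2.08 from 1 to 4 h, a fall of -0.87 ± 0.08 lay in the treated groups (adjusted p = 2.2e-13) and a rise of 1.21 ± 0.06 in the DMSO groups (adjusted p = 9.9e-20). Without scaling factors these parts were -1.13 and 1.23, so their relative size depended on the scaling. NOTCH3 showed the same split, with -0.48 ± 0.08 in the treated groups (adjusted p = 1.6e-06) and 0.55 ± 0.07 in the DMSO groups (adjusted p = 5.1e-08); without scaling factors the treated part was -0.74. The DTX1 level at 4 h under SK-3-91 was also below its starting DMSO level, since the highest treated library had 11.5 CPM and the lowest DMSO library at 1 h had 17.4 CPM.

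GIMAP7, a GTPase of the immunity-associated family found in lymphocytes, lies on chromosome 7 next to GIMAP8. Most of its fall was present at 1 h, with 46.1, 47.1, 51.4 and 46.9 CPM in SK-3-91 libraries and 106, 103, 97.4 and 93.2 CPM in DMSO libraries (log2 fold change -1.06 ± 0.06, adjusted p = 1.3e-18). At 4 h SK-3-91 libraries had 43.7, 49.2, 41.4 and 44.2 CPM, against 97.7, 116, 127 and 115 CPM in DMSO libraries (log2 fold change -1.35 ± 0.06, adjusted p = 1.9e-22). At 8 h they had 38.9, 42.2, 42.2 and 43.9 CPM, against 102, 101, 95 and 102 CPM (log2 fold change -1.26 ± 0.07, adjusted p = 2.5e-20). No treated library reached the lowest control at any time. The treated groups overlapped one another: the log2 change was -0.10 ± 0.07 from 1 to 4 h (adjusted p = 0.16) and -0.09 ± 0.08 from 4 to 8 h (adjusted p = 0.28). Other scalings called both as falls: from 1 to 4 h the change was -0.17 with upper-quartile factors (adjusted p = 0.017) and -0.36 without factors (adjusted p = 6.9e-06), and from 4 to 8 h it was -0.20 (adjusted p = 0.017) and -0.25 (adjusted p = 0.0041). The treated level of GIMAP7 was 47.9%, 39.1% and 41.8% of the DMSO level at 1, 4 and 8 h.

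The change of the response with time was tested as a contrast of the same model. From 1 to 4 h it was called for all 5 genes, against 80.4% of all genes, and it ran in opposite directions: the log2 difference was 1.40 ± 0.08 for HES1 (adjusted p = 1e-18), -1.05 ± 0.07 for NOTCH1, -1.03 ± 0.11 for NOTCH3, -2.08 ± 0.09 for DTX1 and -0.29 ± 0.09 for GIMAP7 (adjusted p = 0.0026 at most for these 4). Without scaling factors the value for GIMAP7 was -0.57 (adjusted p = 2.5e-07). HES1 was the only one of the 5 whose treated level moved toward the DMSO level in this interval. From 4 to 8 h the response of 4 of the 5 genes went further down, where 68.6% of all genes were called in either direction: -0.45 ± 0.07 for NOTCH1 (adjusted p = 3.9e-07), -0.97 ± 0.13 for NOTCH3 (adjusted p = 2.2e-08), -0.84 ± 0.12 for DTX1 (adjusted p = 6.7e-08) and -0.30 ± 0.08 for HES1 (adjusted p = 0.00087). The value of 0.09 ± 0.09 for GIMAP7 did not pass (adjusted p = 0.38, 95% interval from -0.11 to 0.29). From 1 to 8 h all 5 were called, against 85.4% of all genes. The smallest of these changes, -0.20 ± 0.09 for GIMAP7 (adjusted p = 0.045), depended on the scaling: it did not pass with RLE factors (-0.14, adjusted p = 0.14), and was -0.37 with upper-quartile factors (adjusted p = 0.00033) and -0.60 without factors (adjusted p = 1.4e-07). Nor did it pass when any one of replicates 3 and 4 of DMSO at 1 h, replicate 3 of SK-3-91 at 1 h, replicates 1, 2 and 4 of DMSO at 8 h or replicates 1, 2 and 3 of SK-3-91 at 8 h was left out (-0.20 to -0.16, adjusted p between 0.053 and 0.12).

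**Figure D3:**
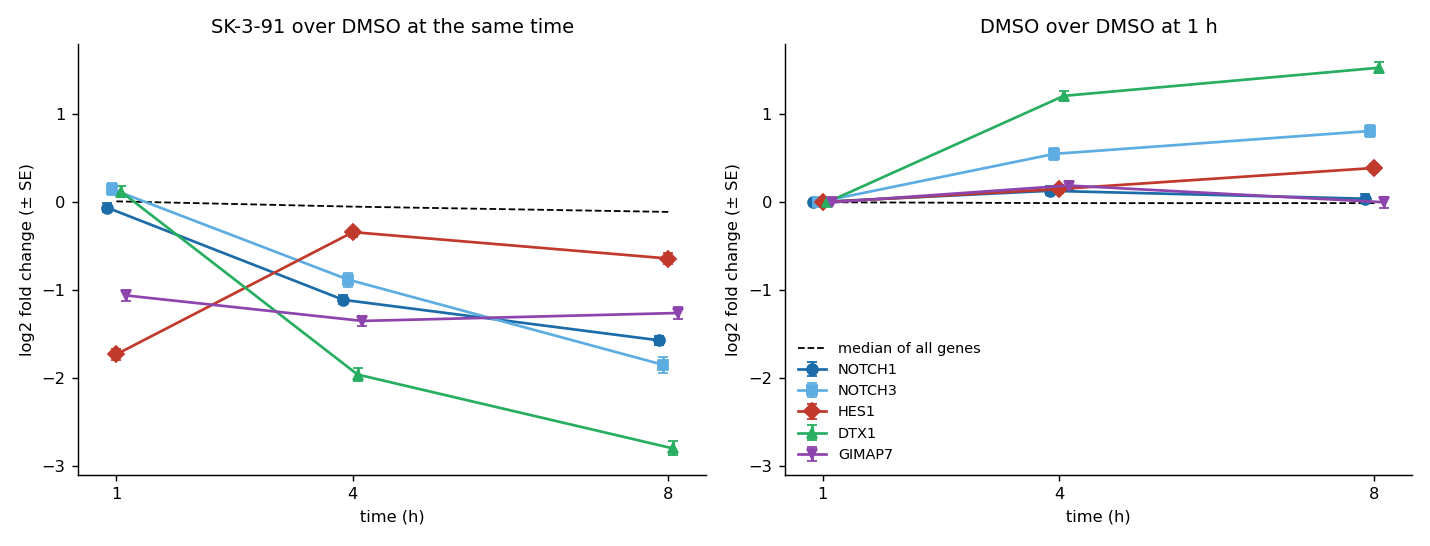
Log2 fold change ± SE (y axis) against time in h (x axis), for SK-3-91 over DMSO at the same time on the left and for DMSO over DMSO at 1 h on the right; the dashed line is the median over all genes. HES1 runs from -1.73 at 1 h to -0.34 at 4 h while DTX1 runs from 0.12 to -1.96, and on the right DTX1 reaches 1.53 at 8 h in DMSO alone.

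In DMSO alone the 5 genes did not hold still. At 4 h against 1 h all 5 were called higher, where 16% of all genes were, and at 8 h against 1 h 3 were, where 22.6% of all genes were. DTX1 and NOTCH3 moved most: NOTCH3 averaged 29.9 ± 1.06 CPM at 8 h and 17.0 ± 1.02 CPM at 1 h (log2 change 0.81 ± 0.07, adjusted p = 8.3e-13). HES1 averaged 58.6 ± 1.27 CPM at 8 h and 44.6 ± 1.75 CPM at 1 h (0.39 ± 0.05, adjusted p = 1.3e-08). NOTCH1 at 0.04 ± 0.05 (adjusted p = 0.48) and GIMAP7 at 0.00 ± 0.06 (adjusted p = 0.99) did not pass between 1 and 8 h. The rises by 4 h were small for NOTCH1 (0.13, adjusted p = 0.036), HES1 (0.15, adjusted p = 0.015) and GIMAP7 (0.19, adjusted p = 0.0059), and single libraries decided these calls. NOTCH1 was at 0.10 and 0.09 without replicate 1 or 2 of DMSO at 1 h and at 0.12 and 0.08 without replicate 1 or 4 of DMSO at 4 h (adjusted p between 0.073 and 0.22), and with upper-quartile factors it was 0.12 and did not pass (adjusted p = 0.054), which leaves 4 of the 5 called. HES1 was at 0.13 without replicate 2 of DMSO at 1 h, and at 0.14 and 0.13 without replicate 2 or 3 of DMSO at 4 h (adjusted p between 0.05 and 0.054). GIMAP7 was at 0.13 without replicate 3 of DMSO at 4 h (adjusted p = 0.067).

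Per kilobase of gene width, NOTCH1 and GIMAP7 were the most abundant of the 5 in DMSO at 1 h, at 80.3 ± 6.58 and 78.8 ± 4.55 CPM per kilobase (SD, n = 4). HES1 followed at 22.3 ± 0.875, DTX1 at 5.38 ± 0.31 and NOTCH3 at 1.95 ± 0.116. NOTCH1 and GIMAP7 did not differ beyond their spread there. Under SK-3-91 at 8 h the per-length means were 27.9 for NOTCH1, 33.0 for GIMAP7, 18.8 for HES1, 2.23 for DTX1 and 0.941 for NOTCH3. Across the 6 groups of one gene, the order from low to high was SK-3-91 at 8, 4 and 1 h and then the 3 DMSO groups for NOTCH1 and for GIMAP7. HES1 alone had the treated 1 h group at the bottom, and DTX1 and NOTCH3 had DMSO at 1 h below SK-3-91 at 1 h. Neighbours in that order overlapped among the 3 DMSO groups and SK-3-91 at 1 h for NOTCH1, among the 3 treated groups and among the 3 DMSO groups for GIMAP7, for SK-3-91 at 8 and 4 h and for DMSO at 1 and 4 h for HES1, and at 1 h for DTX1; no neighbours overlapped for NOTCH3. The coefficient of variation within a group ranged from 2.2% to 15%, with a median of 4.45% over 30 pairs of gene and group.

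Genes with the most similar pattern were sought among 9190 genes with a mean of at least 5 CPM, by the root mean square difference of log2 CPM over the 24 libraries, each profile centred on its 12 DMSO libraries. These libraries share treatment, time and depth, so the likeness is a description of a profile. Nearest to NOTCH1 were PIGO (0.08), CHTOP (0.10) and NFATC2 (0.11). Nearest to NOTCH3 were TFRC, the transferrin receptor (0.18), LIMA1 (0.18) and CEP55 (0.19). Nearest to HES1 were ZFP36L2, an RNA-binding protein that speeds mRNA decay (0.19), TIPARP (0.25) and MEX3B (0.27), whose log2 fold changes at 1 h were -1.31, -1.83 and -1.32 and at 4 h -0.24, -0.11 and -0.50. Nearest to DTX1 were SLC2A1, the glucose transporter GLUT1 (0.28), CEP19 (0.29) and ANKRD37 (0.31). Nearest to GIMAP7 were C15orf39 (0.15), TMEM39A (0.17) and ZNF254 (0.17). Among the 5 genes the closest pair was NOTCH1 and NOTCH3 at 0.27, and the most distant was HES1 and DTX1 at 1.06. None of the 15 nearest genes was another of the 5.

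Of 90 genes on lists of the Notch pathway written from general knowledge, 59 were measured. Leaving out the 5 genes, 11 of 54 were called higher and 20 lower at 1 h, 19 and 30 at 4 h, and 23 and 29 at 8 h, with medians of -0.05, -0.16 and -0.23. Of all genes 24.9%, 42% and 41.3% were called higher and 29.4%, 45.9% and 48.1% lower at 1, 4 and 8 h, with medians of 0.01, -0.05 and -0.11, so the counts of these 54 at 8 h lay near the shares of all genes. Without scaling factors these were 5 and 20, 11 and 34, and 15 and 34. The groups within the pathway went different ways. The 5 ligands on the list and NOTCH4 were not found by symbol among the genes counted. Against NOTCH1 and NOTCH3, the receptor NOTCH2 moved little: it averaged 168 ± 7.16 CPM with SK-3-91 and 155 ± 4.75 CPM with DMSO at 8 h (log2 fold change 0.12 ± 0.04, adjusted p = 0.013). That sign turned without scaling factors (-0.32), and 23.4% of its 50-base words occur in other genes, so its counts are uncertain.

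Genes that modify and cut the receptor mostly fell after 1 h. The shares of all genes called lower were 29.4%, 45.9% and 48.1% at 1, 4 and 8 h, and 24.9%, 42% and 41.3% were called higher. Of 3 glycosylation genes measured, 1 was lower at 1 h, 2 at 4 h and all 3 at 8 h; with RLE factors RFNG, whose exons overlap GPS1 on the opposite strand, was higher at 4 h (0.13). POFUT1, the enzyme that adds fucose to Notch, averaged 24.8 ± 2.17 CPM with SK-3-91 and 155 ± 0.992 CPM with DMSO at 8 h (log2 fold change -2.65 ± 0.06, adjusted p = 2.8e-34). POGLUT1, which adds glucose, fell by 1.39 on the log2 scale. Of 7 cleavage genes, 1 was higher and none lower at 1 h, 1 higher and 5 lower at 4 h, and 1 higher and 6 lower at 8 h. The gene higher at 1 and 4 h, APH1A, was at 0.11 at 1 h, and without scaling factors it was not called there (0.09) and turned to -0.07 at 4 h. ADAM10, the surface protease, fell at 8 h by 1.34 on the log2 scale, and the log2 fold changes of the gamma-secretase subunits NCSTN and APH1B were -1.21 and -1.76. ADAM17, a related protease, was the one that rose, at 0.57 ± 0.06 (adjusted p = 7.9e-12).

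Genes of receptor turnover and of the activator complex were more often higher than lower at 8 h, when 41.3% of all genes were higher and 48.1% lower. Of 11 turnover genes, 2 were higher and 3 lower at 1 h, 7 and 4 at 4 h, and 8 and 3 at 8 h. FBXW7, the ligase subunit that marks intracellular Notch for destruction, averaged 36.1 ± 1.59 CPM with SK-3-91 and 56.4 ± 1.5 CPM with DMSO at 1 h, but 108 ± 5.79 CPM and 51.3 ± 2.18 CPM at 8 h. Its log2 fold change was -0.64 ± 0.05 at 1 h (adjusted p = 3.1e-13) and 1.08 ± 0.05 at 8 h (adjusted p = 7.3e-22). The ligase ITCH rose by 1.16 and MIB2, which acts on Notch ligands, by 1.47 at 8 h. Within the deltex family DTX3 rose to 118 ± 10.6 CPM with SK-3-91, against 45.4 ± 3.36 CPM with DMSO, while DTX3L fell to 23.4 ± 0.93 CPM, against 127 ± 8.13 CPM, and DTX2, 26.5% of whose words are shared with other genes, fell by 2.12.

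Of 9 genes of the activator complex, 2 were higher and 5 lower at 1 h, 5 and 3 at 4 h, and 8 and 1 at 8 h. RBPJ averaged 313 ± 21.6 CPM with SK-3-91 and 181 ± 8.73 CPM with DMSO at 8 h (log2 fold change 0.80 ± 0.04, adjusted p = 2.6e-20). The acetyltransferases CREBBP and EP300 fell at 1 h (-0.46 and -0.44) and rose at 8 h (1.22 and 0.68). CDK8, the kinase that phosphorylates intracellular Notch, rose by 1.00 at 8 h, whereas its cyclin CCNC fell by 1.05. Of 11 corepressor genes, 5 rose and 5 fell at 8 h, from HDAC1 at 1.59 to the Groucho protein TLE3 at -1.42, a split near that of all genes. Without scaling factors these counts shifted downward: at 4 h to 4 higher and 5 lower for turnover genes, 2 and 4 for the activator complex and 4 and 5 for corepressors, and at 8 h to 6 and 3, 6 and 2, and 2 and 7. At 1 h the turnover genes then stood at 0 higher and 3 lower. Under that setting FBXW7, ITCH, RBPJ, CREBBP and NUMB turned below 0 at 4 h and stayed above 0 at 8 h. The rises of SNW1 (-0.13), MAML3 (-0.06), MIB1 (-0.1), TLE1 (-0.21) and TLE4 (-0.23) turned below 0 at 8 h.

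Most known Notch targets fell by 4 h. Of 27 on the list 16 were measured, among them HES1, DTX1, NOTCH3 and GIMAP7; 2 were higher and 8 lower at 1 h, 1 and 14 at 4 h, and 0 and 15 at 8 h, with medians of -0.23, -0.92 and -1.22. Among all genes 24.9%, 42% and 41.3% were called higher and 29.4%, 45.9% and 48.1% lower at the 3 times. The medians over all genes were 0.01, -0.05 and -0.11. With RLE factors the split of the targets at 1 h was 5 and 8. MYC, a transcription factor and a main Notch1 target in this leukaemia, averaged 363 ± 4.25 CPM with SK-3-91 and 719 ± 30.5 CPM with DMSO at 1 h, and 128 ± 11.5 CPM and 645 ± 18.2 CPM at 8 h (log2 fold change -2.33 ± 0.05, adjusted p = 4e-35). The growth factor receptor IGF1R had log2 fold changes of -0.64, -0.97 and -1.18 at 1, 4 and 8 h, and the pseudokinase TRIB2 of -0.42, -0.31 and -0.72. CR2, a complement receptor, was higher at 1 h (0.14 ± 0.06, adjusted p = 0.048), a call lost without scaling factors (0.12), and fell at 4 h (-0.71) and 8 h (-1.71). At 4 and 8 h SHQ1 had -1.06 and -0.57, CCND3, a D cyclin, -0.65 and -0.67, and the transcription factor LEF1 -0.39 and -0.30. HES6, the other HES gene measured, passed at 8 h and at neither earlier time (-0.76 ± 0.14, adjusted p = 5.1e-06). PTCRA, the pre-T-cell receptor chain, was the exception: it rose at 1 and 4 h (0.34 and 0.57), and at 8 h it did not pass, with 14.2 ± 1.5 CPM under SK-3-91 and 14.2 ± 1.55 CPM under DMSO (log2 fold change 0.00 ± 0.10).

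All 4 measured GIMAP genes fell at each time, with medians of -0.61, -2.60 and -2.69. Over all genes 29.4%, 45.9% and 48.1% were called lower at 1, 4 and 8 h, with medians of 0.01, -0.05 and -0.11. These 4 genes are also counted among the targets above. GIMAP2 averaged 40.3 ± 1.26 CPM with SK-3-91 and 54.9 ± 2.14 CPM with DMSO at 1 h, and 6.63 ± 0.857 CPM and 68.5 ± 4.48 CPM at 8 h. Its log2 fold change was -0.45, -2.77 and -3.35 at 1, 4 and 8 h. GIMAP6 had -0.75, -2.43 and -2.34, and GIMAP8, at 1.05 ± 0.272 CPM with SK-3-91 and 8.75 ± 0.774 CPM with DMSO at 8 h, had -0.47, -2.83 and -3.05. GIMAP7 had the lowest log2 fold change of the 4 at 1 h and the highest at 4 and 8 h. Differences between genes were not tested.

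**Figure D4:**
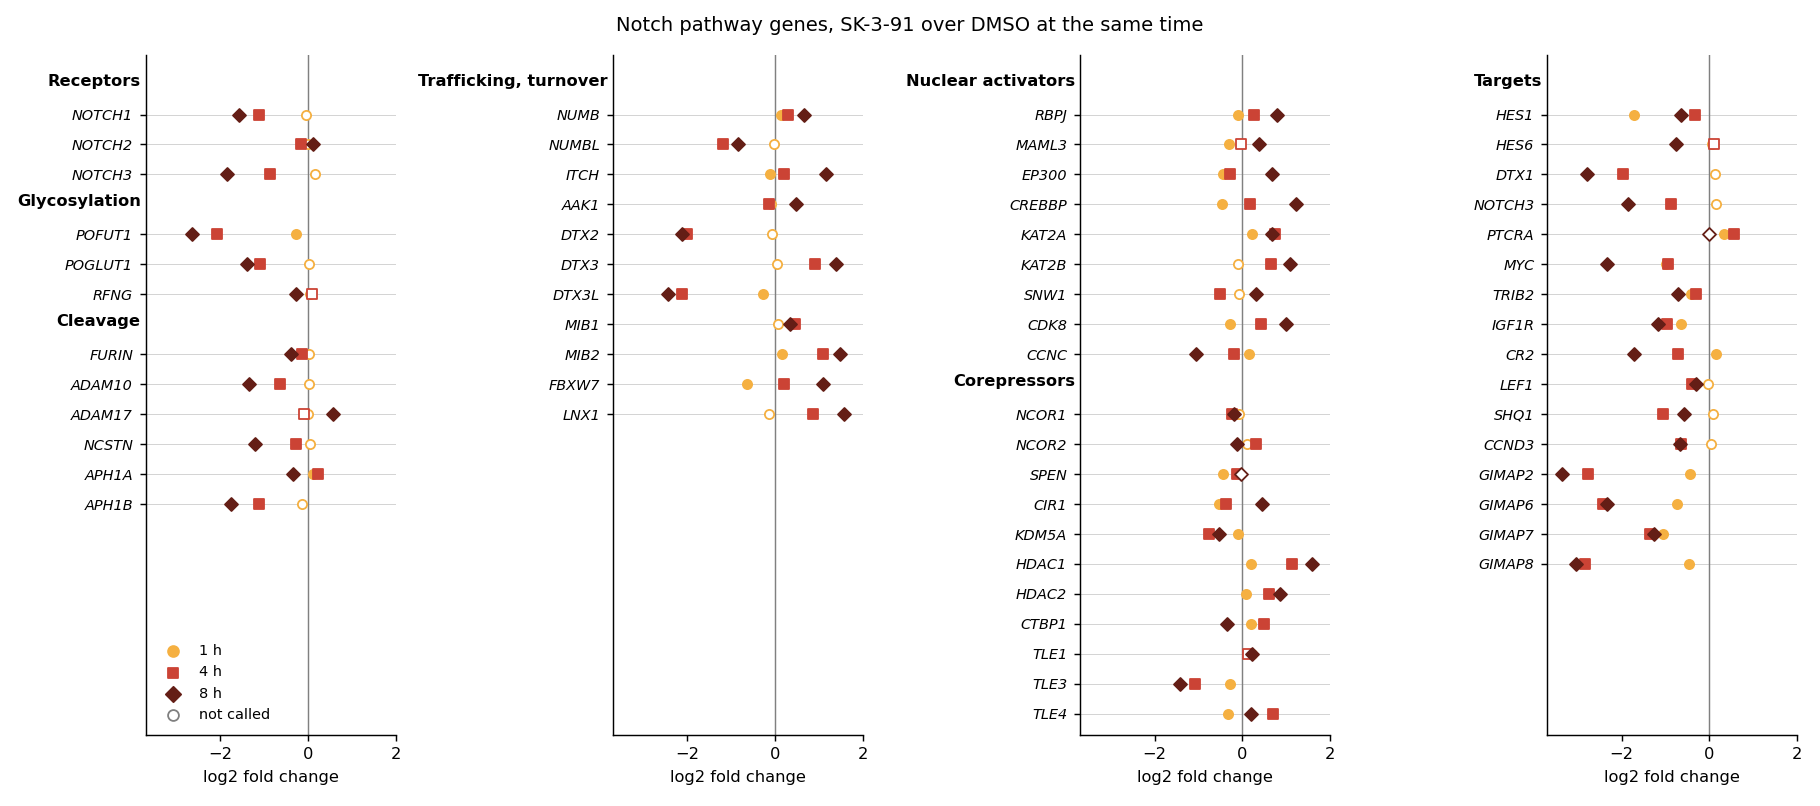
Log2 fold change of SK-3-91 over DMSO (x axis) for all but 1 of the 59 measured genes of the Notch lists, grouped by role; circles are 1 h, squares 4 h and diamonds 8 h, and open symbols were not called; NOTCH3 stands under both receptors and targets. Targets other than PTCRA lie left of 0 at 8 h, with GIMAP2 at -3.35, while 8 of 9 genes of the activator complex lie right of 0.

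Depth, and at 8 h the level of T-lineage markers, moved with these results. Totals of counted reads averaged 13.612, 10.780 and 8.300 megareads in SK-3-91 libraries at 1, 4 and 8 h, against 14.146, 14.431 and 14.241 megareads in DMSO libraries. Fold changes are shares of what was counted, and in bulk samples fewer cells of a type and less RNA per cell cannot be told apart. Without scaling factors, which move the median of all genes to -0.35 at 4 h and -0.54 at 8 h, the 5 genes kept their signs at 4 and 8 h and fell further: HES1 to -0.63 and -1.07, NOTCH1 to -1.41 and -2.0, and DTX1 to -2.26 and -3.23. The T-lineage label held, with 20 of 21 markers measured. Marker levels are given as CPM without TMM factors, unlike the other CPM values here. Their summed level ranged from 7075 to 7248 CPM in SK-3-91 libraries, against 6567 to 6644 CPM in DMSO libraries, at 1 h. It ranged from 5937 to 6391 CPM, against 7096 to 7156 CPM, at 4 h. At 8 h it ranged from 4659 to 5268 CPM, against 7581 to 7977 CPM. TMM factors were 0.884 to 0.901 in SK-3-91 libraries and 1.1 in DMSO libraries at 4 h. At 8 h they were 0.79 to 0.814 and 1.08 to 1.09. Dividing by these factors would put the treated sums above the DMSO sums at 4 h and leave them below at 8 h. Of 6 B-cell markers only CD79A was measured, at 19.0 to 24.4 CPM in SK-3-91 libraries and 6.9 to 11.3 CPM in DMSO libraries at 8 h, and of 6 fibroblast and endothelial markers only PECAM1, at 12.7 to 16.5 CPM and 46.3 to 47.2 CPM. The listed markers of myeloid, erythroid and epithelial cells were not found by symbol among the genes counted. The part of these levels in the falls was not tested.

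**Figure D5:**
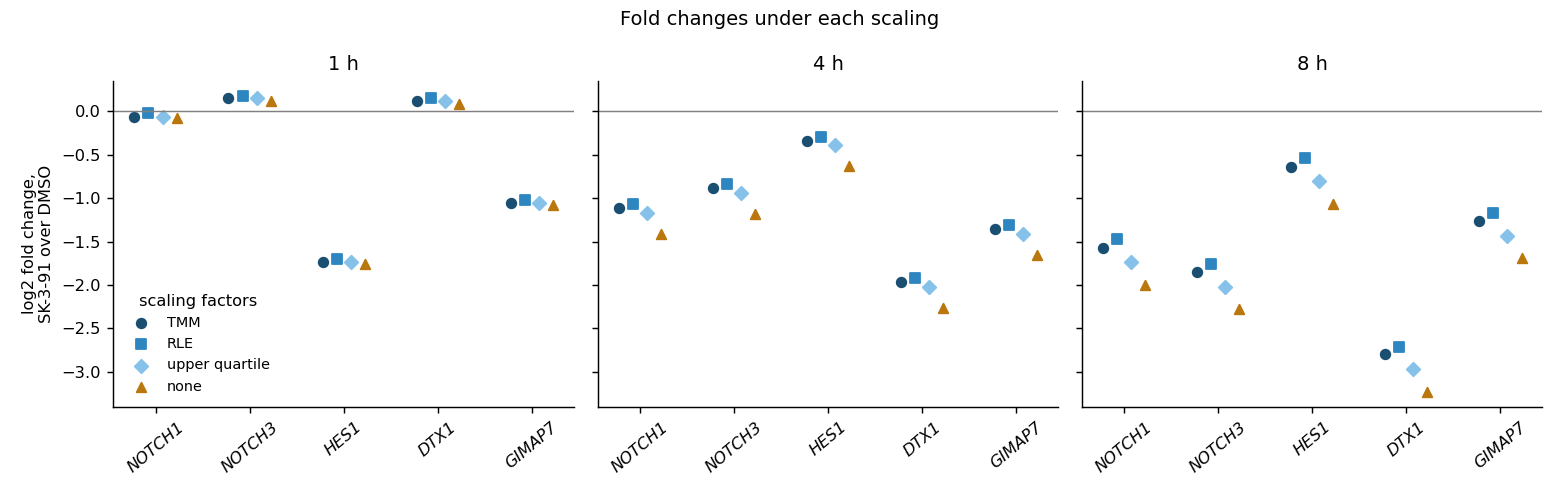
Log2 fold change of SK-3-91 over DMSO (y axis) for the 5 genes at each time, with TMM, RLE, upper-quartile or no scaling factors. The order of the genes stays alike and the values without factors lie lowest, for example -1.07 beside -0.64 for HES1 at 8 h.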

How the data were processed

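Total RNA of 24 MOLT4 samples was sequenced (BGISEQ-500, single reads, 50 bases long, per the labels' protocols). The authors' deposited table holds whole-number read counts per Entrez gene, with a gene width in bases that entered only the per-length levels. The build was hg19 and edgeR had been run, per the submitters' processing notes; for aligner, counter and strand setting the sources used here give nothing. A second deposited table, named for RPKM, holds log2 values that carry no gene length, so planned fits on RPKM were not run and limma-trend was run on the deposited log2 values, which was decided after seeing the data.

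The main test was the quasi-likelihood F test of edgeR 4.0.16 (R 4.3.3) over all 24 libraries and 6 group means, with 18 residual degrees of freedom, after TMM scaling and filterByExpr, by which 0 genes were removed. P-values were adjusted by Benjamini-Hochberg over 9822 genes per comparison, and called means under 0.05. Fold changes are relative, since TMM takes the bulk of genes as steady. Depth was 6.863 to 14.626 megareads per library, and the standard error of log2 fold changes had a median of 0.058, 0.062 and 0.067 at 1, 4 and 8 h.

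The 5 genes and all lists were chosen with earlier results of these data known. Named genes were drawn from the 5, the 3 nearest profiles of each, and all called target, GIMAP and HES/HEY genes. Up to 4 called genes of each other Notch list per comparison, by size of change, could be added. Not all genes that met this rule are described: NUMBL, LNX1, KAT2A, KAT2B, CIR1, SPEN, KDM5A and HDAC2 are left out. ADAM17, ITCH, DTX3, RBPJ, MIB1 and TLE1 fall outside the rule and were named after their values were seen. A gene was called uncertain where over 20% of its 50-base exon words occur in other genes of GENCODE release 29, or of its exon bases face an exon on the opposite strand. Alternatives were RLE, upper-quartile and no scaling factors, DESeq2 1.42.0, other filters, a minimum fold of 1.5, the libraries of 1 time alone, a replicate term and leaving out each library. A gene counted in the lists is not reported here by name.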

Additional observations from a re-analysis of the deposited data

Results flagged for a closer look

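A change of the response with time was called for most of these genes by the contrast of the edgeR model. From 1 to 4 h the log2 difference was -1.05 for NOTCH1, -1.03 for NOTCH3, 1.40 for HES1, -2.08 for DTX1 and -0.29 for GIMAP7. From 4 to 8 h it was -0.45 for NOTCH1, -0.97 for NOTCH3, -0.30 for HES1 and -0.84 for DTX1. From 1 to 8 h it was -1.51 for NOTCH1, -2.0 for NOTCH3, 1.10 for HES1, -2.92 for DTX1 and -0.20 for GIMAP7. HES1 is the gene whose difference was positive, from 1 to 4 h and from 1 to 8 h.

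A single library stood apart from its group in 2 cases, by the gap to its nearest neighbour as a share of the group's range. HES1 in DMSO at 8 h had such a share of 0.902, with replicate 1 lowest at 56.7 CPM. GIMAP7 in DMSO at 8 h had 0.846, with replicate 3 lowest at 95 CPM. Chance gives about 1 such case in 20 groups, and 36 groups were tested.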

How the results depend on the processing

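The calls of the 5 genes at 4 and 8 h kept their direction under each scaling, tool and left-out library tried. Of 430 values under other settings 412 kept their direction and side of the threshold, and of 560 with 1 library left out 537 did. Both other filters kept all 9822 genes, as the main filter did, so their values among the 430 could not differ from the main ones. At 1 h NOTCH3 passed with RLE factors (0.18, adjusted p = 0.028) and DESeq2 (0.18, 0.03), and DTX1 with RLE factors (0.16, 0.033). Within the treated groups HES1 from 4 to 8 h and GIMAP7 from 1 to 4 h and from 4 to 8 h were called as falls with upper-quartile factors (-0.17, -0.17 and -0.20) and without factors (-0.21, -0.36 and -0.25). NOTCH1 in DMSO at 4 h against 1 h lost its call with upper-quartile factors (0.12, 0.054). The change of HES1 from 1 to 8 h was 0.69 without factors, beside 1.10. The change for GIMAP7 from 1 to 8 h did not pass with RLE factors (-0.14, 0.14) or DESeq2 (-0.14, 0.17), was -0.37 with upper-quartile and -0.60 with no factors, and ranged from -0.23 to -0.16 with 1 library left out. From 4 to 8 h its uncalled value turned to -0.01 with upper-quartile and -0.04 with no scaling factors. Its uncalled value for DMSO at 8 h against 1 h turned to -0.01 under both, and ranged from -0.03 to 0.03 with 1 library left out. The causes were not tested.

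A minimum fold of 1.5 left 578 genes (5 higher, 573 lower), 4463 (1938, 2525) and 5548 (2496, 3052) at 1, 4 and 8 h; by construction it asks for more. HES1 then missed at 4 h (-0.34, adjusted p = 1) and 8 h (-0.64, 0.12), and other Notch genes numbered 0 higher and 2 lower, 6 and 17, and 14 and 19. Higher Notch genes numbered 5, 11 and 15 without scaling factors and 5, 12 and 15 with limma-trend on the deposited log2 values, beside 11, 19 and 23. With 1 library left out the count at 1 h ranged from 6 to 10, and was 6 without replicate 3 of DMSO at 1 h, 7 without replicate 4 of that group and 6 without replicate 1 of SK-3-91 at 1 h. GIMAP7 in DMSO at 8 h against 4 h (-0.19) lost its call without replicate 3 of DMSO at 4 h (-0.13, adjusted p = 0.079). With union exon lengths NOTCH3 was at 1.81 and DTX1 at 4.26 CPM per kilobase in DMSO at 1 h.

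Deviations of same-numbered libraries correlated at -0.12 to 0.02, with 0 of 12 pairs over 0.1, and 0 treated libraries correlated best with their own number. With 4 libraries per group this cannot settle whether same-numbered libraries shared a culture or a batch. With the replicate block 5339, 8627 and 8773 genes were called at 1, 4 and 8 h, and all 55 values of the 5 genes kept their call. Planned fits with pseudocounts of 1 and 0.1 on RPKM values were not run, since the table holds none. Depth limits NOTCH3 and DTX1 most, at 39 to 66 and 46 to 58 reads per SK-3-91 library at 8 h.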
